A study of Homo sapiens with 5 samples.

Results

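Chromatin at the muscle microRNA loci was described from ChIP-seq peak lists of RD and RH18. Both are established cell lines of human rhabdomyosarcoma, a tumour of cells that resemble immature skeletal muscle, of the kind without a PAX-FOXO1 gene fusion. The loci are MIR206 with MIR133B on chromosome 6, MIR1-1 with MIR133A2 on chromosome 20, and MIR1-2 with MIR133A1 within the gene MIB1 on chromosome 18. Members were the listed peaks that overlapped a fixed hg19 window around each pair by at least 1 bp: chr6:51950000-52070000 (120 kb), chr20:61100000-61210000 (110 kb) and chr18:19280000-19460000 (180 kb). This gave 35 peaks of 100703 in all: 16 of 43159 H3K27ac regions in RD, 11 of 46408 H3K27ac regions in RH18, and 8 of 11136 MYF5 peaks in RH18. Both lines were grown in serum with no drug named in the labels and fixed in 1% formaldehyde for 12 minutes, and each line stands for a single tumour. The 3 ChIP groups had 1 library each. No value below therefore has a replicate error, no test was run, and line and library cannot be told apart. The 2 input samples were not analysed here.

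H3K27ac, acetylation of histone H3 at lysine 27, is found at enhancers and promoters in use. MYF5 belongs to the MyoD family of basic helix-loop-helix factors, which start the muscle programme and bind the E-box. miR-1, miR-133 and miR-206 are the muscle microRNAs, or myomiRs. They are transcribed as paired precursors from loci that share ancestry, under the control of myogenic factors and MEF2. miR-1 and miR-206 promote muscle differentiation, whereas miR-133 is best known for roles in myoblast proliferation. miR-206 is largely restricted to skeletal muscle, and a level far below that of mature muscle is a known feature of rhabdomyosarcoma.

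The 6 genes encode 4 mature sequences with 2 seeds, all from RefSeq (GRCh38.p14). They are shown because the same mature microRNA can come from loci whose chromatin differed here; capitals mark the seed, bases 2 to 8 from the 5′ end.
miR-206 (MIR206): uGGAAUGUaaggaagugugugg
miR-1-3p (MIR1-1 and MIR1-2): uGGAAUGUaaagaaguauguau
miR-133a-3p (MIR133A1 and MIR133A2): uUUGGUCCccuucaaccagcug
miR-133b (MIR133B): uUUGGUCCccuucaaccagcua

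miR-206 and miR-1-3p shared the seed GGAAUGU and 18 of 22 bases. Counted from the 5′ end, with miR-1-3p first, they differed by A11G, A17G, A21G and U22G, so every difference lay outside the seed. miR-133a-3p and miR-133b shared the seed UUGGUCC and 21 of 22 bases, with G22A as the only difference. Among 2370 mature names in the table, the first seed was found in 3, the third being miR-613, and the second in 2. miR-1-3p and miR-133a-3p each have a precursor in the chromosome 20 window and another in the chromosome 18 window. The precursors below carry an identical mature sequence, in capitals, inside different hairpins.
MIR1-1: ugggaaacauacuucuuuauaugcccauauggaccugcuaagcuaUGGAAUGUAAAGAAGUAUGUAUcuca
MIR1-2: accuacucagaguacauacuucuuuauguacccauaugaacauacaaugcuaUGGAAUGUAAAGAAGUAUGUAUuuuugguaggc
MIR133A2: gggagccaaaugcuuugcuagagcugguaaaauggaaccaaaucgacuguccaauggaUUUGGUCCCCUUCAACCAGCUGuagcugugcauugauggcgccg
MIR133A1: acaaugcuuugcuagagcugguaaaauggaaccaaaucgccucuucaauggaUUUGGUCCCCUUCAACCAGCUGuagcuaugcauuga

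By gene order in RefSeq, MIR133B lies within LINCMD1, a long noncoding RNA of differentiating muscle, between the protein-coding genes PKHD1 and IL17A. MIR1-1 and MIR133A2 lie within the noncoding gene MIR1-1HG, between GATA5 and SLCO4A1. MIR1-2 and MIR133A1 lie within both MIB1, which encodes a ubiquitin ligase of Notch ligands, and the noncoding MIR133A1HG. The hairpins were on the minus strand and MIB1 on the plus strand. RefSeq is on another build than the peaks, so distances from a peak to a hairpin or gene start are not given.

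The 3 windows had 3 different patterns of acetylation. The MIR206 window held 13 H3K27ac regions in RD and 3 in RH18. The MIR1-1 window had the opposite order, with 1 region in RD and 6 in RH18. The MIR1-2 window held 2 in each line. Covered bases had the same order as the counts in the first window, at 4432 bp in RD against 1435 bp in RH18, and in the second, at 380 against 3959 bp. In the third, where the counts were equal, RH18 regions covered more, at 808 bp in RD against 1596 bp in RH18. MYF5 peaks numbered 6, 2 and 0 in the same order of windows. All 3 lists were deposited by the authors with 1 entry per peak, and they ended at different −log10 p-values (5.00 for RD acetylation, 7.09 for RH18 acetylation and 9.09 for MYF5), so an empty place shows only that none was listed.

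**Figure D1:**
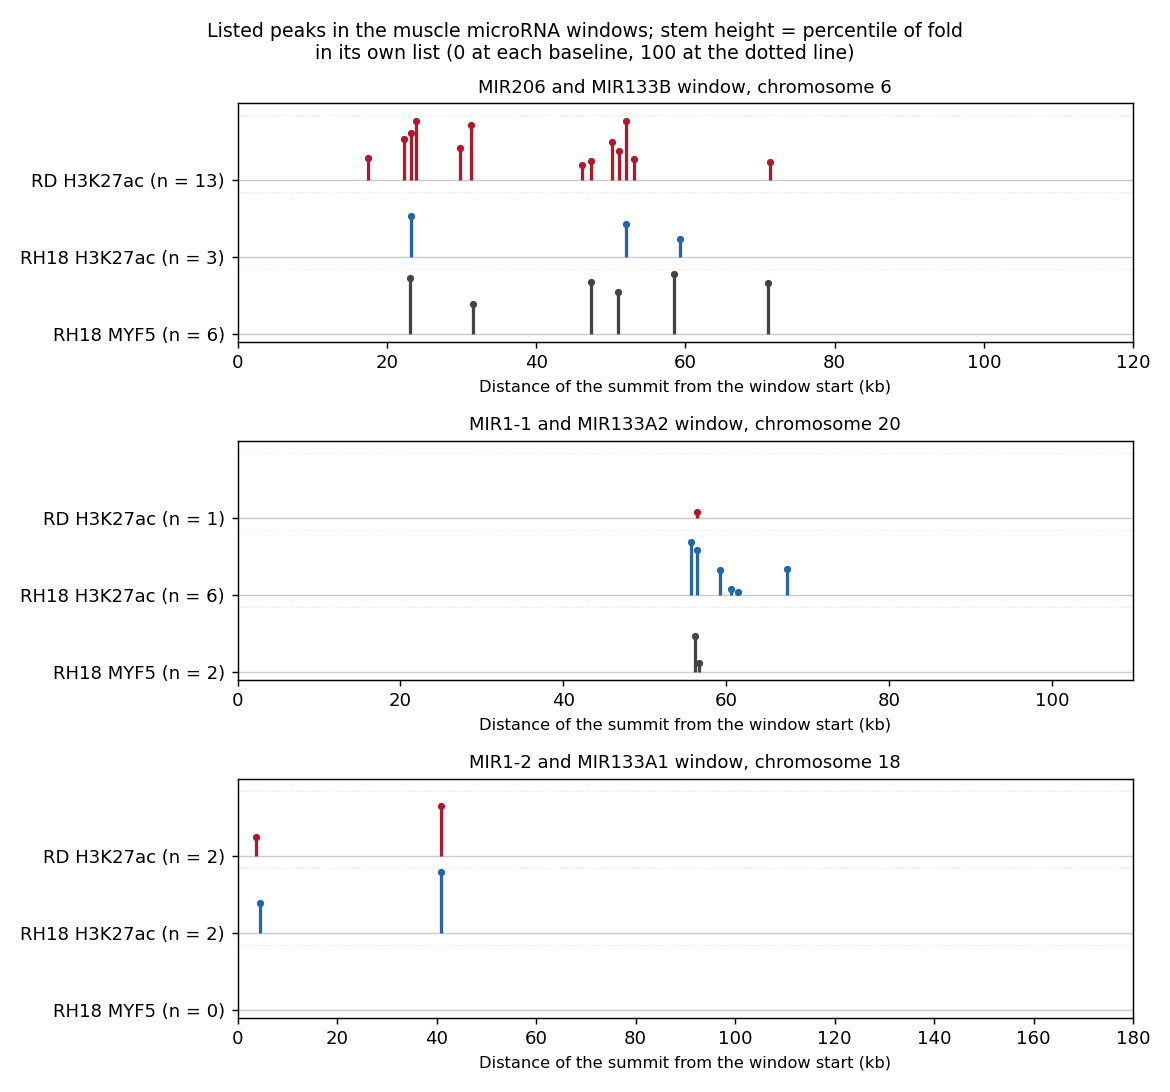
Each stem is 1 listed peak, placed by the distance of its summit from the window start in kb, and its height is the percentile of its fold enrichment within its own list, from 0 at the baseline to 100 at the dotted line. The MIR206 window has 13 RD stems over 3 RH18 stems, the MIR1-1 window 1 over 6, and the MIR1-2 window 2 over 2 with no MYF5 stem.

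To show how common such counts are, each list was counted in all tiles of the same length that held H3K27ac in either line. Of 12240 tiles of 120 kb, 4.38% held 13 or more RD regions, 45.4% held 3 or more RH18 regions, and 1.52% held 6 or more MYF5 peaks. RD exceeded RH18 by 10 regions or more in 1.72% of these tiles. Of 12934 tiles of 110 kb, 80.9% held 1 or more RD regions, 20.1% held 6 or more RH18 regions and 18.6% held 2 or more MYF5 peaks. RH18 exceeded RD by 5 or more in 9.05%. Of 9455 tiles of 180 kb, 68.5% held 2 or more RD regions and 68.6% held 2 or more RH18 regions. The MIR206 window was thus among the more crowded tiles for RD regions and for MYF5 peaks, and the MIR1-2 window was below the median tile of 3 regions in each line and of 1 MYF5 peak. These shares are a description, and the windows were chosen with results of these data known.

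**Figure D2:**
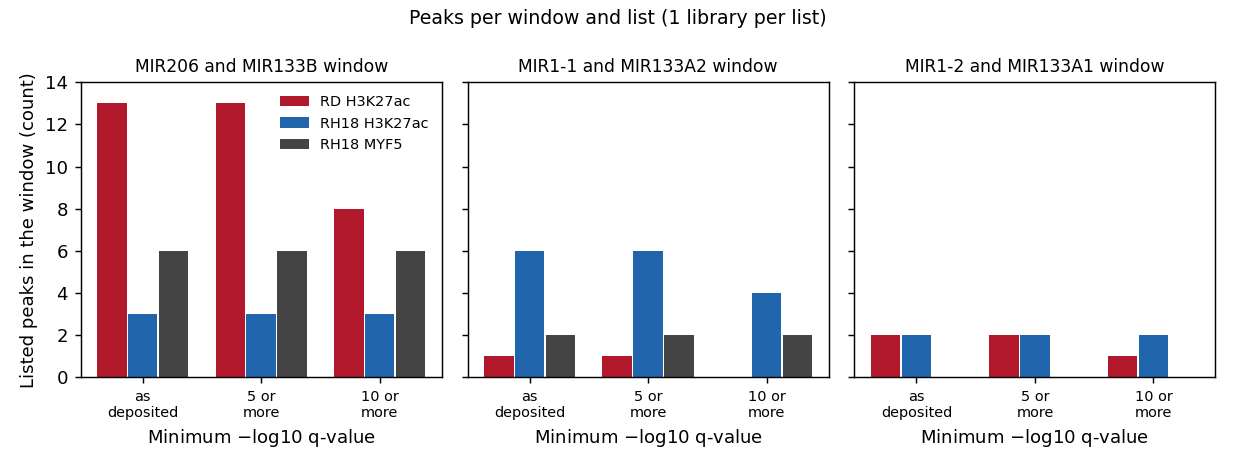
Bars give the number of listed peaks in each window for RD H3K27ac, RH18 H3K27ac and RH18 MYF5, as deposited and with only peaks of a −log10 q-value of at least 5 or 10. At 10 or more, the MIR206 window keeps 8 RD and 3 RH18 regions, and the MIR1-1 window 0 and 4. The same q-value stands for different numbers of tags in the lists.

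Regions were called shared where they overlapped one of the other line by at least 1 bp. Of the 16 RD members 4 (25%) were shared, beside 60.0% of the whole RD list. Of the 11 RH18 members 4 (36.4%) were shared, beside 45.1% of the whole RH18 list. Shared pairs numbered 2 in the MIR206 window, 1 in the MIR1-1 window and 1 in the MIR1-2 window. In each pair the summits of the lines were close, at 27 and 24 bp in the MIR206 window, 45 bp in the MIR1-1 window and 5 bp in the MIR1-2 window. With regions up to 500 bp apart counted, 7 RD and 6 RH18 members had a counterpart. With overlap of at least 50% of both regions, 1 in each line did. Whole-list shares under these other rules were not counted, so these counts cannot be set beside the lists.

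In the MIR206 window the RD regions spread over 53994 bp, from 51967433 to 52021426, with a median gap of 1153 bp between neighbours. Fold enrichment, the authors' ratio over the local background at the summit, ran from 5.95 to 17.3, and summits rested on 34 to 105 sequenced tags, solved from each peak's fold and p-value. Folds are on different scales in the lists, because 1 tag added 0.273 pileup units in the RD list, 0.832 in the RH18 acetylation list and 0.658 for MYF5. Levels are therefore read by percentile within a list. Of the 13 regions, 6 were above the median fold of the RD list and 2 above its 90th percentile.

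The RD region of highest fold in this window was chr6:51973711-51974029, with a fold of 17.3 and 105 tags, above 90.8% of the RD list. Almost level with it was chr6:52001400-52002422, with a fold of 17.3 and 100 tags, above 90.7% of the list. At 1023 bp it was also the widest. The third was chr6:51981211-51981448, with a fold of 14.3 and 86 tags, above 84.7%. All stood well apart from each other, with weaker regions between them. The first of them had its nearest RH18 region 336 bp away, the second overlapped an RH18 region over all of that region's 462 bp, and the third lay 7836 bp from any. The other RD regions had folds of 5.95 to 10.9.

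The 3 RH18 regions of the MIR206 window were chr6:51972875-51973375 (fold 18.7, 51 tags), chr6:52001775-52002236 (fold 14.1, 38 tags) and chr6:52009086-52009557 (fold 9.40, 25 tags). They stood above 63.2%, 50.2% and 27.4% of the RH18 list, so none was among its highest regions. The first lay whole within the RD region chr6:51972846-51973431 (fold 10.9, 62 tags, above 72.0% of the RD list). The second lay whole within the widest RD region. The third had no RD counterpart within 5782 bp. By the solutions taken, all 16 regions of both lines in this window had a local background of at most 1.57 times their list's lowest. For the RD region chr6:51967433-51967628, another solution near whole tags gave 1.63 times. The share of the whole lists at such a background was not counted. On the left, the next H3K27ac region lay 2518458 bp before the window in RD and 2066949 bp before it in RH18. On the right the next lay 78958 bp and 78977 bp beyond it, while the nearest MYF5 peak outside was 38446 bp to the left.

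MYF5 was listed at 6 places in the MIR206 window, more than the RH18 H3K27ac regions there. From left to right, the first MYF5 peak, chr6:51972943-51973386, had a fold of 18.7 and 56 tags, above 85.3% of the MYF5 list. Its summit lay inside an H3K27ac region in both lines, 18 bp from the RH18 H3K27ac summit and 45 bp from the RD summit. It was the only place of the window at which MYF5 and the H3K27ac of both lines coincided.

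The second MYF5 peak, chr6:51981464-51981658 (fold 10.6, 32 tags, above 45.4% of the list), had its summit 116 bp from an RD region and 8189 bp from an RH18 region. The third, chr6:51997242-51997485 (fold 16.1, 48 tags, above 78.9%), had its summit on the last base of the RD region chr6:51997210-51997378 (fold 6.44, 35 tags, above 29.9% of the RD list), and 4397 bp from an RH18 region. At these places MYF5 was listed in RH18, while acetylation was listed at or beside them in RD and not in RH18. The fourth, chr6:52000878-52001134 (fold 13.0, 42 tags, above 64.8%), lay 78 bp from an RD region and 779 bp from an RH18 region. The sixth, chr6:52020865-52021356 (fold 15.7, 47 tags, above 77.95%), lay 221 bp from an RD region of fold 6.27 and 11448 bp from an RH18 region.

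The fifth MYF5 peak, chr6:52008388-52008745, was the highest of the windows, with a fold of 22.6 and 68 tags, above 91.4% of the MYF5 list. It was the only MYF5 member that was nearer to an RH18 than to an RD region by more than 1000 bp: its summit lay 557 bp from the third RH18 region and 5225 bp from the nearest RD region. The highest MYF5 peak was thus beside the lowest of the 3 RH18 regions.

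Over all windows, 2 of the 8 MYF5 summits lay inside an RH18 H3K27ac region, beside 55.2% of the whole MYF5 list. Inside an RD region lay 3 of 8, beside 39.9%. Within 500 bp of an RH18 region lay 3 of 8, beside 72.1%, and within 500 bp of an RD region 7 of 8, beside 62.9%. The combination of an RD region within 500 bp and none in RH18 was found at 4 of 8 summits, beside 8.22% of the list, and the reverse at 0 of 8, beside 17.4%. All 4 were in the MIR206 window. With a −log10 q-value of at least 10 asked of every peak, 1 summit lay inside an RD region. Within 500 bp, 2 summits then had an RD region alone and 2 an RH18 region alone. The counts above thus rest in part on RD regions of low −log10 q-value. That cut is not equally strict in the lists. In the MIR206 window an RD region of 35 tags had a −log10 q-value of 6.41 and was dropped. An RH18 region of 25 tags there had 15.6 and was kept. Whole-list shares at this cut were not counted. Whether MYF5 occupies these places in RD was not analysed here. Seen from H3K27ac, 3 of the 16 RD members held a MYF5 summit (9.71% of the RD list) and 2 of the 11 RH18 members did (12.0% of the RH18 list).

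**Figure D3:**
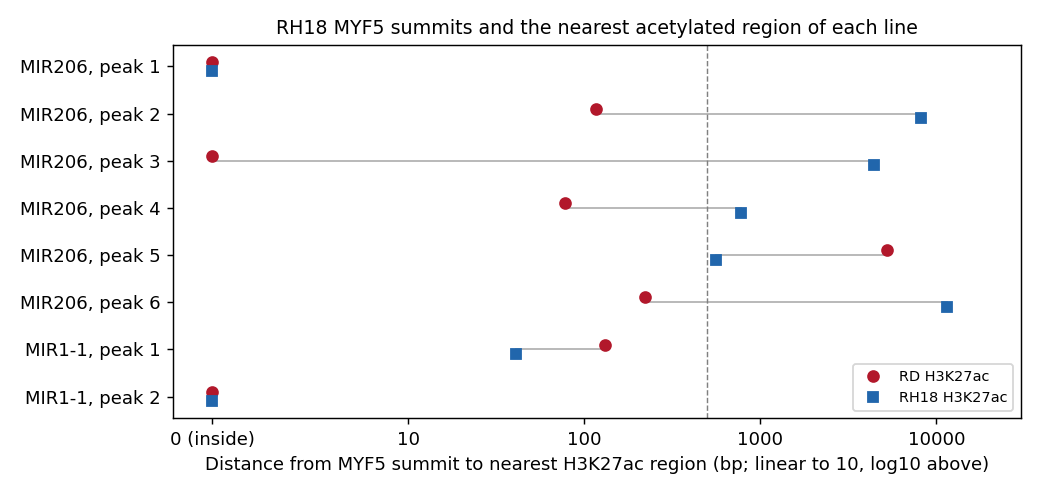
Each row is a MYF5 peak of RH18, numbered from left to right in its window, with the distance in bp from its summit to the nearest H3K27ac region of RD (circle) and of RH18 (square) on an axis that is linear to 10 bp and log10 above; the dashed line is at 500 bp. Of the 8 circles 7 lie left of the line, and 3 of the 8 squares do.

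In the MIR1-1 window the RH18 regions stood in 12877 bp, from 61154815 to 61167691, and the highest were the 2 leftmost. The first, chr20:61154815-61156087, had a fold of 31.2 and 144 tags, above 81.3% of the RH18 list. The second, chr20:61156232-61157180, had a fold of 21.9 and 157 tags, above 69.3%. A gap of 144 bp between listed bounds separated them, and with 1273 and 949 bp they were wider than 87.8% and 79.1% of the list. The remaining 4 regions, rightward of these, were lower, with folds of 5.62 to 11.4 and 16 to 40 tags. Of these, the third by fold was chr20:61166982-61167691 (fold 11.4, 40 tags, above 39.4%), the last of the row.

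RD had a single region there, chr20:61156322-61156701, with a fold of 4.80 and 102 tags. By fold it was above 10.1% of the RD list, and by −log10 p-value above 30.0%. The local background under it was 7.83 times the lowest of the RD list. A second solution, 95.5 tags over a background of 7.25 times the lowest, was set aside because its tags were not whole. A background of at least 4 times the lowest was found under 31.9% of RD regions. The background under the 2 high RH18 regions was 2.18 and 3.79 times the lowest of that list. The part of the background in the low RD fold was not tested. All 380 bp of the RD region lay inside the second RH18 region.

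Both MYF5 peaks of the MIR1-1 window were at these acetylated regions. The first, chr20:61155930-61156465, had a fold of 11.7 and 62 tags, above 55.1% of the MYF5 list. Its summit, at 61156191, fell in the gap between the 2 high RH18 regions, 41 bp from the second. The other, chr20:61156582-61156829, had a fold of 7.62 and 26 tags, above 13.4%, and its summit lay inside the H3K27ac regions of both lines. No MYF5 peak was listed at the 4 lower RH18 regions, whose summits were 2509 to 10788 bp from a MYF5 summit. Outside the window, the nearest H3K27ac regions lay on the left, 11939 bp away in RD and 10831 bp away in RH18.

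The MIR1-2 window had its regions at nearly the same places in both lines, and no MYF5 peak. Without hg19 gene positions, none of these regions could be assigned to the microRNAs or to another gene start, such as that of MIB1. Its main region was chr18:19320672-19321944 in RH18, with a fold of 49.8 and 238 tags, above 93.0% of the RH18 list and the highest RH18 member. In RD it was chr18:19320745-19321235, with a fold of 11.8 and 183 tags, above 76.2% of the RD list. The summits of these regions were 5 bp apart, and no MYF5 summit lay within 128534 bp. The other regions lay at the left end of the window, chr18:19284379-19284701 in RH18 (fold 12.8, 72 tags, above 45.7%) and chr18:19283573-19283889 in RD (fold 6.43, 63 tags, above 29.9%). These did not overlap and were 490 bp apart. From the end of the main RH18 region to the end of the window, 138 kb, no list had an entry, and the next H3K27ac region lay 587515 bp beyond the window in RH18 and 958674 bp beyond it in RD.

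The RefSeq promoters of the noncoding hosts MIR1-1HG and MIR133A1HG, 250 bases before to 50 after the gene start, were compared because these genes encode the same mature microRNAs but lie in windows that differed in listed acetylation. They were aligned without gaps at the CAGCTG E-box of each, and a stretch of 50 bases from there was compared. The start and length of this stretch were set for the comparison, so the shared E-box and the extent are not results. The stretch in MIR1-1HG is GRCh38.p14 chr20:62550316-62550365, plus strand, and that in MIR133A1HG is GRCh38.p14 chr18:21831495-21831544, minus strand; these positions cannot be set against the hg19 peaks. Capitals mark bases that are the same in both.
MIR1-1HG: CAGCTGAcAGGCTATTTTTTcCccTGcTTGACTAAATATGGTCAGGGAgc
MIR133A1HG: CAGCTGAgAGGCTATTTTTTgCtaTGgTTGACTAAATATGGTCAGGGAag

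Of the 50 bases 43 were the same, which begin 137 and 138 bases before the gene start. Over the whole 299 aligned bases 36.5% were. Both strands were searched for the E-box CANNTG, whose forms CAGCTG and CACCTG overlap it. CANNTG was found 2 times in the MIR1-1HG promoter and 4 times in that of MIR133A1HG, and 68.7% of 35116 promoters held it. CAGCTG was found 1 time in each, and 17.9% of promoters held it, whereas CACCTG was in neither and in 20.6% of all. The MIB1 promoter held no CANNTG. The AT-rich CTATTTTT, chosen after the sequences were seen as it resembles the site of MEF2, a partner of the myogenic factors, was in both noncoding hosts' promoters and in 1.36% of all. A match to letters is not a bound site.

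Other muscle microRNA loci and some marker genes were counted in round windows drawn around known hg19 gene positions, which could not be checked against an hg19 annotation here. MIR208A and MIR208B, in the cardiac and slow myosin genes MYH6 and MYH7, had 3 RD and 3 RH18 regions and 1 MYF5 peak. MIR499A, in the myosin gene MYH7B, had 3 RD regions, none in RH18, and 1 MYF5 peak. MIR486, in the ankyrin gene ANK1, had 19 RD and 12 RH18 regions and 2 MYF5 peaks over 260 kb. RD regions outnumbered RH18 regions in the MIR499A and MIR486 windows, a difference that was not tested or set beside other tiles. The highest MIR499A region in RD had a fold of 6.44, above 29.9% of the list. At MIR486 the highest region was above 96.5% of the list in RD and 91.9% in RH18. As a check of the labels, the muscle genes MYOD1, MYOG and DES had 22, 15 and 16 RD regions and 22, 15 and 14 RH18 regions around them. ALB of liver and PTPRC of blood cells had none in either line, while CDH5 of endothelium had 2 in RD and 5 in RH18. The highest CDH5 region in RH18 had a fold of 67.9, above 97.6% of that list, and the highest MYOG region 36.0, above 85.3%. The highest MYOD1 and DES regions in RH18 had folds of 88.3 and 107.4, above 99.4% and 99.9%. In RD the highest CDH5 region had a fold of 7.73, above 46.9% of the list, and the highest MYOG region 37.3, above 99.8%. The highest MYOD1 and DES regions in RD had folds of 33.9 and 23.7, above 99.6% and 97.0%.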

How the data were processed

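Peak lists of 3 ChIP libraries on hg19 were used. Per the submitters' processing notes, BWA 0.7.10 and MACS2 2.1.0 were involved; their roles, the control and the thresholds are not given in the sources used here. Per the deposited lists, the authors give each peak a fold enrichment (a ratio), −log10 values of its p and q, and a summit. The deposited score equals the −log10 p-value times 10, cut to a whole number (1 entry in all was off), and was left out. Library depth was not stated. Tags and background were solved from fold and p-value by the formulas of MACS2 (fold as pileup plus 1 over background plus 1, and a Poisson tail). The step returned the tags of peaks simulated with these same formulas. That check shows only that the solving inverts the formulas, not that the deposited values followed them. Whole tags, within 0.1, came out for 100.0% of the RD list, 97.5% of the RH18 acetylation list and 100.0% of the MYF5 list; the remaining 2.53% had p-values too small to solve. A single solution existed for 6 of 16, 9 of 11 and 6 of 8 members, and elsewhere the nearest whole tag was taken; in 4 cases another solution was also within 0.1 of whole. Named peaks were every MYF5 member and, per window and H3K27ac list, the 3 of highest fold, the widest, and those with a MYF5 summit. Members, windows and lists were chosen with earlier results of these data known. A percentile is the percent of a list with a lower value. Sequences are from RefSeq tables (GRCh38.p14), which matched all 6 microRNAs and held 5 of their hairpins. Software was Python 3.11.15 with numpy (2.4.6), pandas (2.3.3), scipy (1.17.1) and, for plots, matplotlib (3.10.9).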

Additional observations from a re-analysis of the deposited data

How the results depend on the processing

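Of 98 alternative values over 18 counts, 80 stayed within 1.5 times the reported count and 18 did not; those on summits near H3K27ac of a single line were chosen after seeing the data. No paired analysis was possible because each group holds 1 library. With a −log10 q-value of at least 10, RD regions numbered 9 in all windows, 8 in the MIR206 window, 0 in the MIR1-1 window and 1 in the MIR1-2 window, and 1 MYF5 summit lay inside an RD region, 2 lay within 500 bp of RD regions alone and 2 of RH18 regions alone. With entries within 1000 bp joined, the MIR206 window had 8 RD regions, and the MIR1-1 window 3 RH18 regions and 1 MYF5 peak. With windows 20 kb wider the MIR1-1 window had 3 RD regions, and with windows 20 kb narrower the MIR1-2 window had 1 region in each line. With overlap of at least 50% of both regions, 1 RD and 1 RH18 region were shared. With regions at most 500 bp apart 7 RD regions were, and whole-list shares under these rules were not counted. By any overlap, 6 MYF5 peaks met an RD region, and 7 MYF5 summits lay at most 500 bp from one. The excess of RD regions in the MIR206 window and of RH18 regions in the MIR1-1 window held in each setting that changed window counts. These excesses are of whole windows, and which regions lie at the hairpins was not determined. Because depth was not stated and the lists end at unlike thresholds, an empty place may lie below what a library could show. A −log10 q-value of 10 also stands for different numbers of tags in the lists, so that cut is not equally strict.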
